A study of Rattus norvegicus with 6 samples.

Results

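Car1, Car2, Clcn2 and Gpr4 are 4 genes of acid-base and chloride handling whose RNA was higher in c-kit+ bone marrow cells of phenylhydrazine-treated rats than in those of control rats. They were picked by symbol from the authors' comparison, after their treated-to-control differences were known, and are 4 of the 17172 genes with a value in the deposited files. The treatment difference of these 4 genes is therefore given as a description, with no test. The data are poly(A) RNA libraries from 6 rats of the ACI strain aged 6 to 8 weeks, 1 library per rat. In the PHZ group, 3 rats received phenylhydrazine, a compound that destroys red cells and causes haemolytic anaemia, at 100 mg/kg into the peritoneum. The PBS group was 3 rats treated with phosphate-buffered saline. Cells were collected at 36 h from bone marrow and enriched for c-kit, the stem cell factor receptor, which marks blood stem cells, progenitors and the first erythroid stages. By label, 2 rats per group were female and 1 was male, and no transgene or deletion is named for either group.

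Carbonic anhydrases interconvert carbon dioxide and water with bicarbonate and a proton. CAR1 and CAR2 are the cytosolic enzymes of the red cell, where they let carbon dioxide leave the tissues as bicarbonate, which crosses the membrane in exchange for chloride through band 3. CAR2 is the fast enzyme and CAR1 the slower one that accumulates as red cells mature. CLCN2 is a plasma-membrane chloride channel of the CLC family that opens on hyperpolarisation and takes part in the control of cell volume and chloride. GPR4 is a G protein-coupled receptor that senses extracellular protons through histidine residues, couples mainly to cyclic AMP formation and is best known from vascular endothelium.

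The 250 bases before the annotated start were looked at for Clcn2 and Gpr4, to show what lies ahead of each start. No such window was available here for Car1 or Car2. They come from RefSeq on the GRCr8 build, chr11:93702344-93702593 for Clcn2 and chr1:88002829-88003078 for Gpr4, both on the + strand and written 5′ to 3′. Capitals mark matches, on either strand, to CACCC (the core bound by Kruppel-like factors, GGGTG on the other strand) or to CANNTG (the E-box).
Clcn2: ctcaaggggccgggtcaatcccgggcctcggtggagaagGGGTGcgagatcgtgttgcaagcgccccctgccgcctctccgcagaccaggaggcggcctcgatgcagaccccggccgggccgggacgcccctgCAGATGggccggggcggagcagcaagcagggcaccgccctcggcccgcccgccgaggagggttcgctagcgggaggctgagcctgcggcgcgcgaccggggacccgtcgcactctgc
Gpr4: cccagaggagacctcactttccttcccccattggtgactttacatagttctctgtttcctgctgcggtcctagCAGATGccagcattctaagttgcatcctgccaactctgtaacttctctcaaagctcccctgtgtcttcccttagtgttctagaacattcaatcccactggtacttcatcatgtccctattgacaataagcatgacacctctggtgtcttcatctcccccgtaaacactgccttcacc
Each window held 1 E-box and both read CAGATG, at bases -117 to -112 from the start in Clcn2 and -177 to -172 in Gpr4. CANNTG was present in 65.5% of all 33469 promoter windows of that length and CAGATG, which was searched after it had been seen in both, in 14% on either strand. The single CACCC match, read as GGGTG, was in Clcn2 at bases -211 to -207, and 49.2% of all windows held one. No match was found in either window for GATAA, the GATA factor core (23.5% of all windows), TTCNNNGAA, the STAT core (7.67%), or TGACG, the core bound by CREB and ATF factors (18.2%). The windows differed in base composition, with 75.6% G and C in Clcn2 and 48.4% in Gpr4 against a median of 51.2% over all windows. Both starts lie inside the span the RefSeq gene table gives to the gene, so other annotated transcripts start further upstream, and binding to either window was not measured here.

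The libraries held 13196249 to 19492793 expected counts, of which globin genes took 9.58% to 22.1%. A count of 3, the limit that a count of 0 allows, came to 0.142 to 0.23 CPM (counts scaled to library depth). In 3 libraries the Y-linked transcripts went against the sex label. PBS1 and PHZ3, labelled female, had 210 and 162 CPM of Y-linked RNA, and PBS2, labelled male, had 0.0615 CPM. The treatment label of those libraries has no such check here. Summed c-kit+ progenitor markers (Kit, Cd34, Flt3, Gata2, Spi1 and Mpo) were 586 CPM in PBS1 against 2128 and 2033 in the other PBS libraries and 892 to 1318 in PHZ, most of the gap being Mpo, which is also a neutrophil marker. Without Mpo the sums were 300, 419 and 371 CPM in PBS and 252 to 327 in PHZ, and Kit itself was 56.8 ± 6.32 CPM in PBS and 53.5 ± 18.9 in PHZ (SD, n = 3 each). PBS1 also held the most stromal marker RNA, 742 CPM against 130 to 225 in the other 5 libraries. The cells were sequenced in bulk, so a larger share of cells carrying an RNA and more of it per cell cannot be told apart. Each library is 1 rat, and p-values below measure the spread between these rats.

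Car1, the slower cytosolic enzyme, had 10269, 10136 and 7713 counts in the PBS libraries 1 to 3 and 30513, 33923 and 23277 in the PHZ libraries 1 to 3. Scaled to depth, these were 624, 590 and 505 CPM against 1447, 2118 and 1784 CPM. All 3 PHZ libraries lay above all 3 PBS libraries, and the lowest PHZ value was 2.32 times the highest PBS value. The mean was 573 ± 61.2 CPM in PBS and 1783 ± 336 in PHZ (SD, n = 3 each), a log2 fold change of 1.64 ± 0.20 (SE), or 3.11-fold. By level per length, Car1 already stood among the most abundant transcripts of control cells, at rank 156 to 180 of the genes listed in a PBS library, and at rank 30 to 54 in PHZ.

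Car2, the fast cytosolic enzyme, had 20488, 16319 and 17353 counts in PBS and 36403, 56096 and 34494 in PHZ. These were 1245, 950 and 1137 CPM in PBS and 1726, 3503 and 2643 CPM in PHZ. The groups did not overlap, but the gap was the narrowest of the 4 genes, the lowest PHZ library being 1.39 times the highest PBS library. The mean was 1111 ± 149 CPM in PBS and 2624 ± 889 in PHZ (SD, n = 3 each), a log2 fold change of 1.24 ± 0.28 (SE), or 2.36-fold. Car2 ranked 85 to 118 by level per length in PBS and 23 to 56 in PHZ. Without PHZ2, the highest PHZ library, its log2 fold change was the lowest of the leave-one-out fits, 0.98, and without PHZ1 the highest, 1.47.

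Clcn2, the hyperpolarisation-activated chloride channel, was a scarce transcript in PBS and a moderately abundant one in PHZ. It had 120, 67 and 66 counts in PBS and 2207, 1901 and 1303 in PHZ, or 7.29, 3.90 and 4.32 CPM against 105, 119 and 99.8 CPM. The lowest PHZ library was 13.7 times the highest PBS library. PBS1 was the highest control, and the PHZ libraries lay close together, with a coefficient of variation of 9.1% against 35.7% in PBS. The mean was 5.17 ± 1.85 CPM in PBS and 108 ± 9.8 in PHZ (SD, n = 3 each), a log2 fold change of 4.38 ± 0.27 (SE), or 20.8-fold. By level per length it ranked 10526 to 11782 in PBS and 2264 to 2520 in PHZ. Without PBS1 its log2 fold change was 4.71, the highest of the leave-one-out fits.

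Gpr4, the proton-sensing receptor, had 37, 25 and 29 counts in PBS and 377, 642 and 320 in PHZ. The exact 95% Poisson intervals of the PBS counts, which cover counting error only, were 26.1 to 51.0, 16.2 to 36.9 and 19.4 to 41.6. In CPM, Gpr4 was at 2.25, 1.46 and 1.90 in PBS and at 17.9, 40.1 and 24.5 in PHZ, the lowest PHZ library being 7.95 times the highest PBS library. The mean was 1.87 ± 0.397 CPM in PBS and 27.5 ± 11.4 in PHZ (SD, n = 3 each), a log2 fold change of 3.87 ± 0.37 (SE), or 14.7-fold. Its spread among PHZ rats was the widest of the 4 genes, with a coefficient of variation of 41.5%, and PHZ2 stood above the other PHZ libraries. Gpr4 ranked 12107 to 12514 by level per length in PBS and 3650 to 6419 in PHZ.

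**Figure D1:**
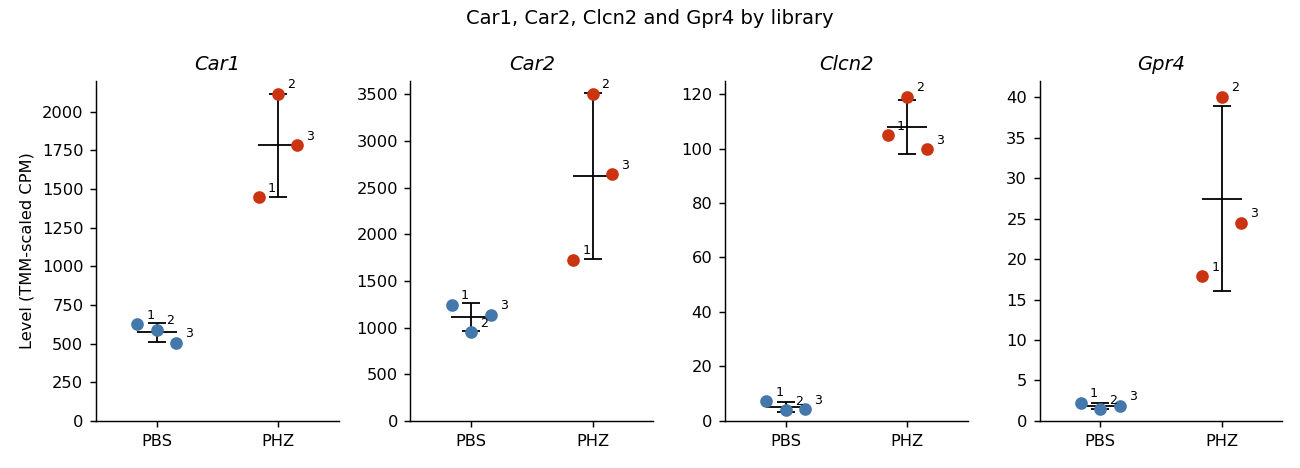
Levels of Car1, Car2, Clcn2 and Gpr4 in TMM-scaled CPM (linear axes from 0, one panel per gene), with 1 point per rat numbered by replicate and the bar and whiskers giving the mean and SD of 3 rats. In each panel all PHZ points lie above all PBS points, Clcn2 from 99.8 to 119 CPM against at most 7.29, while for Car2 PHZ1 (1726 CPM) comes nearest to the controls.

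All 4 genes were higher in PHZ with groups that did not overlap. These values chose them, so nothing is read from that. Of all 13547 tested genes, 41.7% had groups that did not overlap, 8.99% were called higher in PHZ and 13.2% were called in either direction (edgeR quasi-likelihood test, adjusted p under 0.05). Among tested genes ordered by log2 fold change, Clcn2 was at rank 13, Gpr4 at 19, Car1 at 145 and Car2 at 355. The authors' deposited table gives log2 ratios of PHZ over PBS of 4.31 for Clcn2, 3.79 for Gpr4, 1.56 for Car1 and 1.16 for Car2, each within 0.1 of the fitted value.

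Counts were whole numbers for all 4 genes in all 6 libraries. Car1, Car2 and Clcn2 each had 1 transcript model in the authors' files, and Gpr4 had 2. The length the authors assigned to Gpr4, which moves with the mix of its transcripts, was 1923 to 2073 bases in PBS and 1979 to 2062 in PHZ, and the groups overlapped. The higher Gpr4 counts in PHZ thus came without a separation of the groups in assigned length.

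Levels of different genes can be set side by side per length, in FPKM (fragments scaled to transcript length and library depth). Car2 was at 928, 711 and 770 FPKM in PBS and 1328, 2183 and 1855 in PHZ, and Car1 at 571, 542 and 420 FPKM in PBS and 1367, 1620 and 1537 in PHZ. In PBS all Car2 values exceeded all Car1 values, whereas in PHZ the ranges overlapped and in PHZ1 Car1 was the higher. The ratio of Car2 to Car1 FPKM was 1.62, 1.31 and 1.83 in PBS and 0.972, 1.35 and 1.21 in PHZ, so the groups overlapped in this ratio.

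Clcn2 was at 2.41, 1.30 and 1.30 FPKM in PBS and 35.7, 32.9 and 31.1 in PHZ, and Gpr4 at 1.19, 0.82 and 0.89 FPKM in PBS and 9.61, 18.2 and 12.3 in PHZ. Clcn2 exceeded Gpr4 in each of the 6 libraries. The ratio of Clcn2 to Gpr4 FPKM was 2.03, 1.59 and 1.46 in PBS and 3.71, 1.80 and 2.53 in PHZ, and here too the groups overlapped. The order of levels was thus Car2, Car1, Clcn2, Gpr4 in PBS. In PHZ, Car2 and Car1 averaged 1789 ± 432 and 1508 ± 129 FPKM (SD, n = 3). Within the PHZ libraries the ratio of Car2 to Car1 was 0.972, 1.35 and 1.21, so their order differed between rats, and it was not tested. The distance between the enzyme and the channel was smaller in PHZ, the ratio of Car1 to Clcn2 FPKM being 237 to 417 in PBS and 38.3 to 49.5 in PHZ, without overlap.

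The libraries fell in a like order for several of the 4 genes. PBS1 was the highest PBS library for each of them in CPM. PHZ2 was the highest PHZ library for Car1, Car2 and Gpr4, and for Clcn2 after TMM scaling, while as a share of the library total and in FPKM Clcn2 was highest in PHZ1. PHZ1 was the lowest PHZ library for Car1, Car2 and Gpr4, while Clcn2 was lowest in PHZ3. Erythroid marker RNA summed over all 13 measured genes was 109963, 92069 and 203853 CPM in PBS and 82262, 241393 and 158544 in PHZ, and the groups overlapped. Most of it was globin, and Hba1 and Hbb had log2 fold changes of 0.20 ± 0.52 and 0.14 ± 0.47 (SE) and were not called. Erythroid marker RNA other than the globins Hba1 and Hbb, summed over 11 genes, was 8702, 5903 and 7386 CPM in PBS and 11067, 18930 and 15144 in PHZ. This sum was highest in PBS1 among controls, highest in PHZ2 and lowest in PHZ1 among treated rats, and did not overlap between groups. Of the 13 measured erythroid markers, 7 were called higher (edgeR, adjusted p from 0.0212 to 0.0499) and all 13 had a positive log2 fold change, with a median of 1.07, against 8.99% and 4.17% of all tested genes called higher and lower. Among them were the erythroid transcription factors Klf1, at 185 ± 16.1 CPM in PBS and 515 ± 159 in PHZ, and Gata1, at 99.1 ± 10.3 and 232 ± 68.0 CPM (SD, n = 3). The share of erythroid cells was not measured, and its part in the higher levels of the 4 genes was not tested.

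Among markers of other cell types, some of endothelium, stroma and the B lineage were called lower in PHZ. Of all tested genes, 4.17% were called lower and 41.7% had groups that did not overlap. Endothelial markers, relevant to Gpr4, summed to 192 to 346 CPM in PBS and 134 to 173 in PHZ over 13 genes, without overlap. Much of this was Pecam1, Vwf and Tie1, at 53.9, 42 and 37.8 of the 192 CPM in PBS2. A sum without these genes was not made, so the sum is not read as a level of endothelial cells. Of the 11 tested, 3 were called lower, namely Pecam1, Tie1 and Kdr (edgeR adjusted p 0.0229, 0.0323 and 0.0408). Eng alone had a positive log2 fold change, 0.58 ± 0.20 (SE), with groups that did not overlap, and was not called. For Cdh5, Tek, Emcn, Esam and Plvap the groups overlapped and PBS1 was the highest library. Tie1 lacked that PBS1 excess, at 33.6, 37.8 and 34.8 CPM in PBS. Pecam1, an adhesion molecule of endothelium also found on blood cells, was at 57.3 ± 7.01 CPM in PBS and 25.1 ± 6.13 in PHZ (SD, n = 3). Osteoclast markers, relevant to Car2, which acidifies the resorption pit, summed to 643 to 862 CPM in PBS and 305 to 631 in PHZ over 7 genes, most of it Mmp9, which neutrophils also express. Without Mmp9 they summed to 91.1 to 196 CPM in PBS and 98.2 to 168 in PHZ, and the groups overlapped. Acp5, the osteoclast acid phosphatase, was at 177, 75.1 and 70.5 CPM in PBS and 150, 96.5 and 83.4 in PHZ. Summed stromal markers were 217 to 742 CPM in PBS and 130 to 178 in PHZ, and 1 of the 6 tested, Runx2, was called lower (edgeR adjusted p = 0.0196). Outside PBS1 most of the sum was Alpl, at 89.6 to 151 CPM, which was not called. Runx2 was at 48.5, 46.5 and 45.7 CPM in PBS, without the PBS1 excess of the sum. Neutrophil markers summed to 11744 to 24774 and 5168 to 11160 CPM. B-lineage markers summed to 523 to 612 and 130 to 212 CPM, with 5 of the 6 genes called lower. Macrophage markers overlapped, at 1429 to 4126 CPM in PBS and 1522 to 1983 in PHZ. No list had a marker at 0 in all libraries.

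No other carbonic anhydrase was called. Of 14 further family members and related proteins, 12 had values and 5 had enough counts to be tested. By edgeR 0 were called (0 at an unadjusted p under 0.05, and 0 called by DESeq2 and by limma), against 13.2% of all tested genes. With 5 genes, 0 calls cannot be told from that share. The median log2 fold change of the 5 was -0.28 against -0.04 over all tested genes. The most abundant was Car5b, a mitochondrial enzyme, at 19.9 ± 5.01 CPM in PBS and 16.3 ± 3.53 in PHZ (SD, n = 3), with a mean of 9.69 FPKM over all libraries. Car6, the secreted enzyme of saliva, was at 8.02 ± 1.11 CPM in PBS and 6.56 ± 0.988 in PHZ. Car8 and Car11, related proteins without enzymatic activity, were at 0.92 to 3.56 CPM across the 6 libraries. The remaining 7 with values, among them the membrane-bound Car4, Car9, Car12 and Car14, were too low to test.

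**Figure D2:**
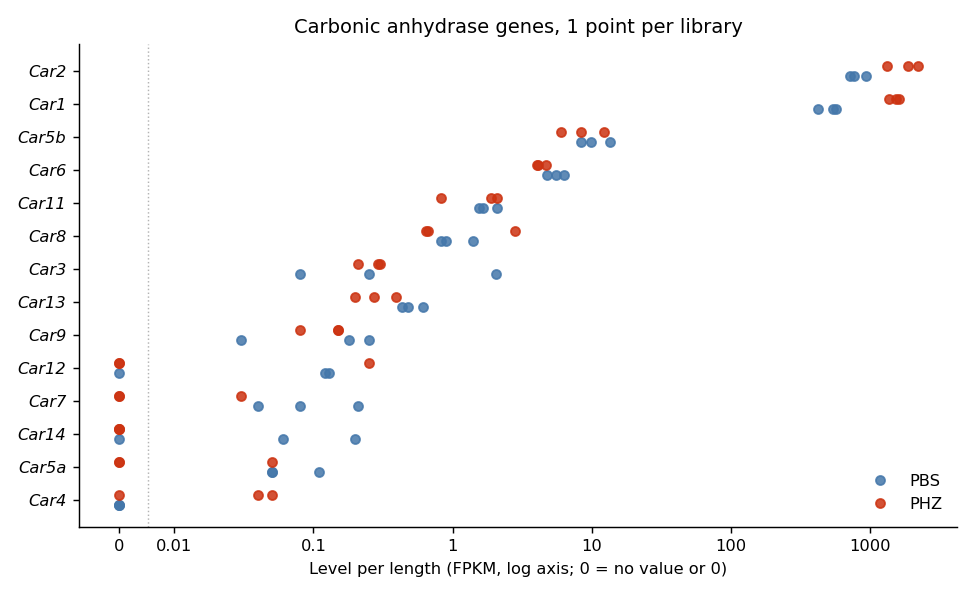
Level per length (FPKM, log axis, values of 0 drawn left of the dotted line) of 14 carbonic anhydrase genes, with 1 point per library, blue for PBS and red for PHZ. Car1 and Car2 lie at 420 FPKM or above in each library, with PHZ to the right of PBS, and the next gene, Car5b, averages 9.69 FPKM with both colours mixed.

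Car1 and Car2 lie in a cluster of carbonic anhydrase genes, in the order Car2, Car3, Car1, Car13 in the RefSeq gene table (GRCr8). Car3, the muscle enzyme that lies between them, had 24, 3 and 1 counts in PBS and 3, 4 and 3 in PHZ and was too low to test. Car13, another cytosolic enzyme, on the other side of Car1, had 13, 15 and 19 counts in PBS and 10, 7 and 10 in PHZ. It was at 0.969 ± 0.242 CPM in PBS and 0.559 ± 0.180 in PHZ (SD, n = 3), a log2 fold change of -0.80 ± 0.46 (SE) that did not pass the test (edgeR adjusted p = 0.257). Within this cluster, high RNA and a higher level in PHZ were thus seen for the outer enzyme Car2 and for Car1, and Car3 between them had 4 or fewer counts in 5 of the 6 libraries. Rbis (RGD1565641 in the authors' files), next beyond a pseudogene, was at 12.4 ± 2.25 CPM in PBS and 18.0 ± 4.77 in PHZ, with overlapping groups.

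Beside Clcn2, the nearest gene on one side, Polr2h, which encodes a shared subunit of the RNA polymerases, rose from 11.9 ± 0.765 CPM in PBS to 21.4 ± 1.34 in PHZ (SD, n = 3; log2 fold change 0.85 ± 0.14 SE, edgeR adjusted p = 0.0220). Chrd, which encodes the BMP antagonist chordin and lies further out, was at 4.30 ± 2.73 and 2.06 ± 0.840 CPM and was not called (adjusted p = 0.284). The gene between these, listed as Thpo in the authors' files and Thpol1 by RefSeq, had 5 to 18 counts per library and was too low to test. Fam131a, Eif4g1 and Snord66, on the other side of Clcn2, were not analysed here. Clcn2 and Fam131a overlap at one end in the RefSeq gene table, and since no source used here gives the strand of the reads, reads from that overlap cannot be assigned to either. The 20.8-fold difference of Clcn2 thus stood beside a 1.81-fold difference of Polr2h.

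Next to Gpr4, Opa3, a mitochondrial protein gene, rose from 14.5 ± 2.35 CPM in PBS to 26 ± 0.742 in PHZ (SD, n = 3; log2 fold change 0.84 ± 0.16 SE, edgeR adjusted p = 0.0260). Vasp, an actin regulator beyond it, was at 491 ± 103 and 307 ± 38.6 CPM and was not called (adjusted p = 0.0665). On the other side, Eml2, a microtubule-associated protein gene, was at 30.4 ± 9.02 CPM in PBS and 32.3 ± 0.932 in PHZ, and the incretin receptor gene Gipr was too low to test. Ppm1n was at 10.3 ± 5.11 and 8.67 ± 1.87 CPM with overlapping groups, and Mir330 was not analysed here. No tested neighbour within 3 genes of Clcn2 or Gpr4 had a log2 fold change above 0.85.

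**Figure D3:**
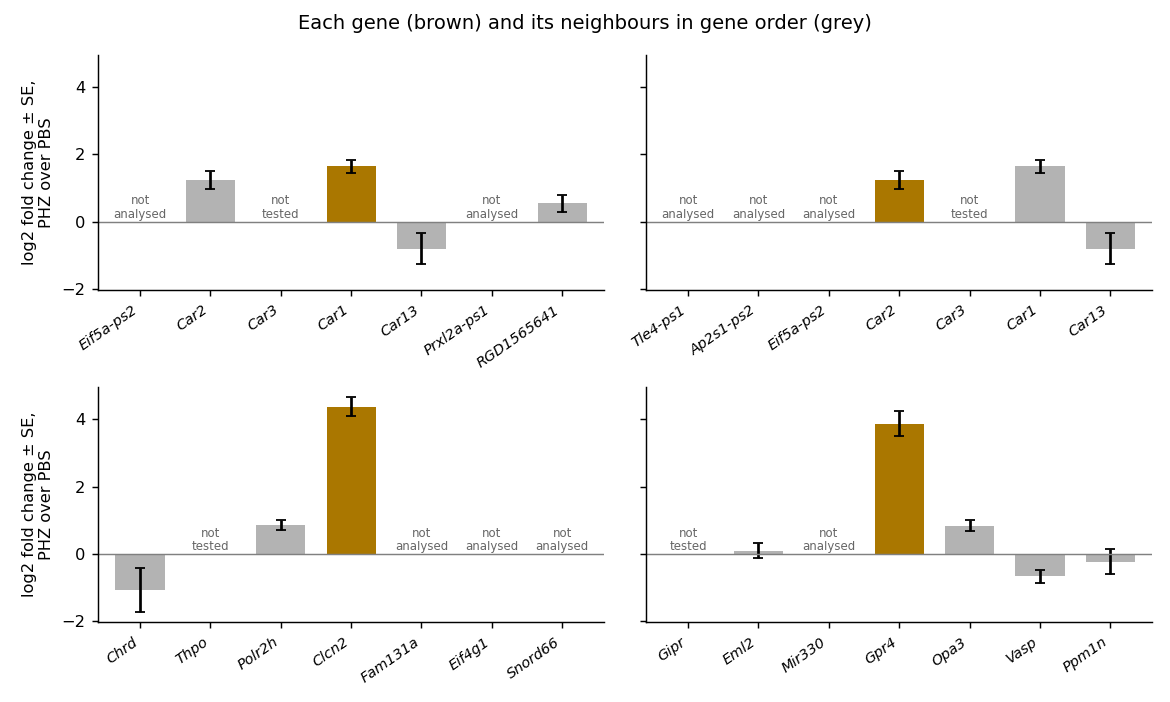
Fitted log2 fold change of PHZ over PBS (bars, whiskers ± SE of the fit to 3 rats per group) for Car1, Car2, Clcn2 and Gpr4 (brown) and the 3 genes on each side in RefSeq gene order (grey). Clcn2 (4.38) and Gpr4 (3.87) stand far above neighbours that reach at most 0.85, and Car1 and Car2 appear in each other's panels.

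Other genes of the same functions were taken from 10 lists of 176 genes, drawn up by function with earlier results of these data known. Of these, 156 had values and 108 were tested. Of the tested genes, 10 (9.26%) were called higher and 5 (4.63%) lower, against 8.99% and 4.17% of all tested genes, and the median log2 fold change was -0.10 against -0.04. The lists as a whole were thus called about as often as any gene. These 15 calls depend on the libraries used. Without PBS2 or PBS3 the same test called 0 of the list genes, as it called 0 of all genes (3325 and 3291 at an unadjusted p under 0.05), without PHZ2 it called 3 and without PHZ3 4. Without the 3 libraries that went against their sex label it also called 0 (of all genes, 1480 at an unadjusted p under 0.05), and DESeq2 on all 6 called 35.

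Among bicarbonate and anion exchangers, which pass on the product of CAR1 and CAR2, 1 of 11 tested genes was called, against 13.2% of all tested genes. Slc4a1, which encodes band 3, the chloride-bicarbonate exchanger of red cells, was the most abundant at a mean of 1016 FPKM. It was at 3853, 2579 and 2860 CPM in PBS and 4513, 7384 and 6476 in PHZ. The groups did not overlap, PHZ1 again was the lowest and PHZ2 the highest treated library, and the log2 fold change of 0.98 ± 0.26 (SE) did not pass the test (edgeR adjusted p = 0.0537). The called gene was Slc26a3, a chloride-bicarbonate exchanger of gut epithelium, which fell by 3.26 ± 0.65 (SE) on the log2 scale from a low level, 27, 66 and 39 counts in PBS and 2, 7 and 4 in PHZ (edgeR adjusted p = 0.0282).

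Of 6 tested genes listed as gas and water channels of the red cell, 2 were called higher and none lower. The shares over all tested genes were 8.99% and 4.17%. The median log2 fold change of the list was 0.79. Aqp3, a water and glycerol channel, rose from 23.1 ± 7.22 CPM in PBS to 60.5 ± 5.57 in PHZ (SD, n = 3; log2 fold change 1.39, edgeR adjusted p = 0.0222). Rhag, the Rh-associated ammonia and gas channel, rose from 212 ± 57.2 to 507 ± 109 CPM (1.26, adjusted p = 0.0291). Aqp1, the main red cell water channel and the most abundant of the list, was at 580 ± 195 CPM in PBS and 912 ± 156 in PHZ with overlapping groups. Aqp9 went the other way, from 24.8 ± 2.49 CPM in PBS to 11.8 ± 5.33 in PHZ, without overlap. Its log2 fold change of -1.07 ± 0.34 (SE) was not called (edgeR adjusted p = 0.0798). Rhag and Slc4a1 are also among the erythroid markers above.

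For proton and lactate extrusion, 1 of 12 tested genes was called higher and 3 lower, against 8.99% and 4.17% of all tested genes. The median log2 fold change was -0.49. Chp1, an obligate partner of plasma-membrane sodium-proton exchangers, rose from 143 ± 32.0 to 600 ± 165 CPM (SD, n = 3; log2 fold change 2.07 ± 0.26 SE, edgeR adjusted p = 0.0169). Slc16a3, a lactate exporter, fell from 195 ± 35.3 to 90.4 ± 17.5 CPM (adjusted p = 0.0244), the scaffold Slc9a3r1 from 88.1 ± 6.74 to 61.5 ± 1.67 (0.0350) and the organellar exchanger Slc9a7 from 25.2 ± 4.19 to 10.4 ± 4.17 (0.0466). Emb, an accessory protein of lactate carriers and the most abundant of the list at a mean of 346 FPKM, was not called. The vacuolar proton pump, which acidifies organelles, had 0 of 19 tested subunits called by edgeR (2 at an unadjusted p under 0.05, 2 called by DESeq2 and 0 by limma). Its most abundant subunit Atp6v0c was at 406 ± 34.2 CPM in PBS and 426 ± 33.8 in PHZ.

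No relative of Clcn2 in the CLC family was called. Of 6 tested other CLC proteins and their subunits, edgeR called 0 (1 at an unadjusted p under 0.05, 1 called by DESeq2 and 0 by limma). Over all tested genes 13.2% were called, and with 6 genes 0 calls cannot be told from that share. The median log2 fold change of the 6 was -0.02. Ostm1, the beta subunit of the lysosomal exchanger CLCN7, had the highest level at a mean of 19.7 FPKM and was at 49.7 ± 3.28 CPM in PBS and 52.5 ± 5.83 in PHZ (SD, n = 3). Clcn3, an endosomal chloride-proton exchanger named here after its value was seen, had the highest log2 fold change of the 6, 0.66 ± 0.19 (SE; edgeR adjusted p = 0.0643). Of 12 other chloride channel and volume-regulation genes, edgeR called 0 (3 at an unadjusted p under 0.05, 2 called by DESeq2 and 0 by limma). These 12 are likewise too few to tell 0 calls from the 13.2% of all tested genes. The most abundant, Clic1, a chloride intracellular channel protein, was at 193 ± 22.2 CPM in PBS and 145 ± 17.4 in PHZ.

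Of 11 tested cation-chloride cotransporters and their kinases, which set the chloride level and volume of cells, 2 were called higher and none lower. Of all tested genes, 8.99% were called higher and 4.17% lower. Slc12a4, a potassium-chloride cotransporter of red cells, rose from 14.3 ± 0.825 to 26 ± 1.81 CPM (SD, n = 3; log2 fold change 0.86 ± 0.13 SE, edgeR adjusted p = 0.0212). Oxsr1, a kinase that regulates these cotransporters, rose from 72.3 ± 3.61 to 98.8 ± 5.86 CPM (adjusted p = 0.0464). Sgk1, the kinase with the highest level at 56.9 FPKM, was not called, and the median over the list was -0.30 on the log2 scale.

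None of the other proton-sensing receptors was called. Of 8 measured receptors and acid-sensing channels, 3 were tested. By edgeR 0 were called (2 at an unadjusted p under 0.05, 1 called by DESeq2 and 0 by limma), against 13.2% of all tested genes. With 3 genes, 0 calls cannot be told from that share. Gpr132, a receptor related to GPR4, was at 18.8, 19.0 and 17.1 CPM in PBS and 11.8, 6.18 and 10.5 in PHZ (log2 fold change -0.95 ± 0.26 SE, edgeR adjusted p = 0.0555). Gpr65, another relative, was at 14.6, 11.9 and 11.6 CPM in PBS and 8.82, 6.43 and 9.50 in PHZ (-0.62 ± 0.22, adjusted p = 0.0997). For both, each PHZ library lay below each PBS library.

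Downstream of GPR4, 5 of 23 tested genes of G proteins and cyclic AMP signalling were called higher and 1 lower, with a median log2 fold change of -0.10. Over all tested genes the shares were 8.99% higher and 4.17% lower. Calls in this list numbered 1 without PHZ2, 0 without PHZ3, 2 with limma, 3 with labelled sex as a covariate and 10 with DESeq2. Prkar2a, a regulatory subunit of protein kinase A, rose from 18.0 ± 4.00 to 48.4 ± 10.4 CPM (SD, n = 3; log2 fold change 1.42, edgeR adjusted p = 0.0218). Adcy3, an adenylyl cyclase, rose from 13 ± 0.373 to 22.6 ± 2.17 CPM (0.79, adjusted p = 0.0237). Pde4b, which degrades cyclic AMP, fell from 161 ± 72.5 to 38.0 ± 10.3 CPM (-2.08 ± 0.40 SE, adjusted p = 0.0289), while its relative Pde4d rose from 33.1 ± 2.92 to 48.3 ± 1.25 (0.54, adjusted p = 0.0359). The remaining genes called higher were the cyclase gene Adcy6 and the transcription factor gene Atf1. Gnas, the stimulatory G protein alpha subunit and the most abundant of the list at 426 FPKM, was at 752 ± 78.4 CPM in PBS and 700 ± 69.5 in PHZ.

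**Figure D4:**
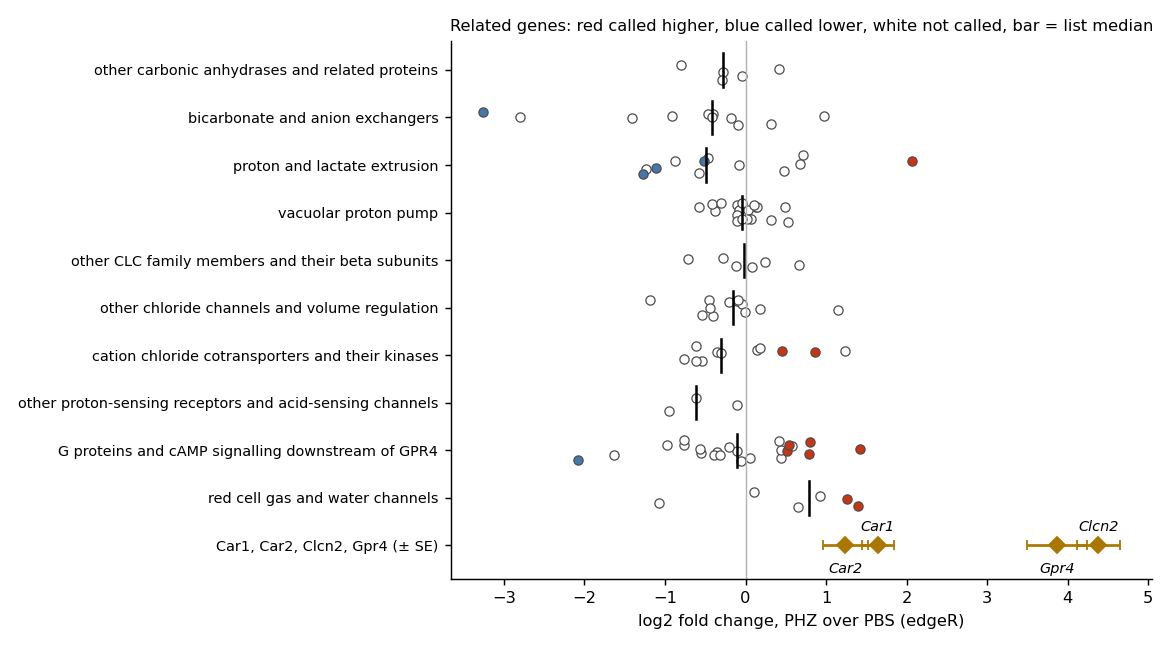
Fitted log2 fold change of PHZ over PBS for the 108 tested genes of 10 lists (1 circle each, red called higher, blue called lower, white not called, black bar the list median) and for Car1, Car2, Clcn2 and Gpr4 (brown diamonds ± SE). Clcn2 and Gpr4 lie to the right of all list genes, the highest of which is Chp1 at 2.07, and the list medians run from -0.62 to 0.79.

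The genes whose pattern across the 6 libraries was most like each of the 4 were found among 8704 genes, by the root-mean-square difference of log2 CPM centred on each gene's mean. For Car1 these were Arhgef40 (0.10), a guanine nucleotide exchange factor gene, Rad51c (0.10), a recombination gene, and Pklr (0.11), the pyruvate kinase of red cells and liver. For Car2 they included Slc6a9 (0.07), the glycine transporter used for haem synthesis, and Tal1 (0.08), an erythroid transcription factor gene. For Clcn2 the closest gene was Gpr4 (0.46), followed by Trim15 (0.49) and Pdzk1ip1 (0.55). For Gpr4 the closest was Actr3b (0.40), an actin-related protein gene, then Clcn2 (0.46) and Mylk3 (0.53), a myosin light chain kinase gene. Clcn2 and Gpr4 are thus each among the 3 most like the other. Car1 and Car2 differed from each other by 0.29, more than from their closest genes, and from Clcn2 and Gpr4 by 1.09 to 1.64. These distances contain the treatment difference that chose the genes and are a description.

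Sex as labelled was the comparison that did not choose the genes. The log2 difference of male minus female, with treatment in the model, was 0.23 ± 0.20 (SE) for Car1, 0.21 ± 0.32 for Car2, -0.12 ± 0.28 for Clcn2 and 0.33 ± 0.36 for Gpr4 (edgeR adjusted p from 0.935 to 0.966). None of the 13547 genes was called for sex (0%, with 379 at an unadjusted p under 0.05 and 23 called by DESeq2). Of the 6 libraries, 3 went against that label. Without those 3, which left PBS3 against PHZ1 and PHZ2 and took the lone PBS library to vary like the others, the log2 fold changes of PHZ over PBS were 1.82 ± 0.53 for Car1, 1.21 ± 0.67 for Car2, 4.69 ± 0.40 for Clcn2 and 3.94 ± 0.78 for Gpr4.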

How the data were processed

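Each library's file, as the authors deposited it, holds an expected count per gene (72.8% to 74.1% of values whole), its FPKM and a transcript length, and another deposited file holds a table of mean FPKM per group, a log2 ratio and a score named Probability. The submitters' processing notes name HISAT, GATK, RSEM and rn6 without roles, and strandedness is not given in the sources used here. A gene without a value in a library was set to 0.

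Expected counts were rounded and tested with edgeR 4.0.16 under R 4.3.3 (filterByExpr, TMM scaling, robust quasi-likelihood test, treatment as the term, Benjamini-Hochberg adjustment over 13547 genes). An adjusted p under 0.05 is a call. CPM are TMM-scaled except those of Y-linked genes in the sex check, which are per library total. DESeq2 1.42.0, limma 3.58.1 on log2 of FPKM plus 1 or 0.1, other scalings, filters and left-out libraries were alternatives. The fit left 4 residual degrees of freedom. A table of RefSeq genes and promoters (GRCr8) gave gene order and the windows printed.

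The 4 genes, the lists and the tests were chosen with earlier results of these data known. Named from each list were its called genes (the 4 with the smallest p where more than 4 were called) and its most abundant gene. For each of the 4 genes, the 3 most alike and the 3 neighbours on each side were named. Other genes named from a list complete a count or were chosen after their values were seen. Some results that this rule takes are not reported here.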

Additional observations from a re-analysis of the deposited data

How the results depend on the processing

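The log2 fold changes of Car1, Car2, Clcn2 and Gpr4 kept their direction under all 16 alternatives, moving by more than the spread between replicates only with limma on log2(FPKM + 1), to 3.70 for Clcn2 and 2.83 for Gpr4, a scale that understates fold changes from low levels. Leaving out each library in turn gave 1.5 to 1.77 for Car1, 0.98 to 1.47 for Car2, 4.21 to 4.71 for Clcn2 and 3.50 to 4.11 for Gpr4. Counts of calls moved far more. The 1783 calls over all genes were 3421 with DESeq2, 1015 with library totals, 928 with labelled sex as a covariate, 0 to 1744 with a library left out and 0 when the 3 libraries at odds with their sex label were dropped. The 15 calls in the lists became 35, 8, 9, 0 to 22 and 0 under the same changes, and 9 with limma at either pseudocount. Of all calls, 68.3% were higher in PHZ, 56.7% with DESeq2 and 58.7% with upper-quartile scaling. With the replicate number as a replicate block, 0 genes were called over all genes (4641 at an unadjusted p under 0.05) and 0 in the lists, and the 4 log2 fold changes were 1.63, 1.19, 4.42 and 3.80. Deviations of same-numbered libraries correlated at 0.213, 0.0573 and 0.00452, and those of differently numbered libraries at -0.166 to 0.154. These few values do not settle whether the numbers pair the rats. DESeq2 called 23 genes for labelled sex against 0. The cause of these changes was not tested. Sex by Y-linked transcripts was not run, since groups were taken from labels. Control counts were low for Clcn2 and Gpr4, 66 to 120 and 25 to 37 per PBS library.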
